A study of Mus musculus with 18 samples.

Results

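Lung tumours from cobalt-exposed mice were compared with control lung on 12 arrays, 6 of tumours and 6 of lung, chosen by their group labels out of the 18 arrays of the series. The mice were of the B6C3F1/N strain, a hybrid that is widely used in cancer bioassays and is prone to lung tumours. Cobalt metal dust was inhaled for 6 hours a day on 5 days a week at 1 of 3 concentrations (1.25, 2.5 and 5 mg/m3), for up to 105 weeks from an age of 5 to 6 weeks, with 0 mg/m3 in the unexposed animals. The cobalt tumours carry the label of tumours of treated mice, and the control arrays carry the label of vehicle control lung. The other 6 arrays are labelled as spontaneous tumours and were used to set a difference against tumours not labelled as treated. They also entered the fit that gave the p-values, the choice of probe sets and the principal components. The study used both sexes, and neither the sex nor the concentration behind an array is given in the sources used here. Tumours were cut out of the lung and frozen, so a control array holds whole lung and a tumour array holds mainly what the dissection took. The description of control 6 names a spontaneous tumour, while its title, source and group label name a control. Whether each array of a group stands for its own animal is not stated in the labels; the p-values then reflect only how far these samples spread, some of which may be technical.

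Alveolar and bronchiolar tumours of the mouse lung arise from the epithelium of the distal airways and alveoli, and tumours with features of alveolar type 2 cells, which secrete surfactant, are common. Cobalt ions can take the place of iron in prolyl hydroxylases, the enzymes that mark the oxygen-sensitive factor HIF-1α for destruction, and cobalt salts are used in culture to switch on hypoxia genes. Cobalt can also generate reactive oxygen species, which release the transcription factor NRF2 from its inhibitor KEAP1 and thereby raise glutathione and detoxification genes. The title of the series names oxidative stress and lung carcinogenesis, and according to its design text both tumour groups were set against the controls.

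The 12 arrays fell apart by group with 1 exception. Over all genes, the first principal component of the 18 arrays held 52.8% of the variance and placed the controls between -67.7 and -63.7, cobalt tumours 1 to 5 between 36.1 and 60.6, and cobalt tumour 6 at -24.5. Cobalt tumour 6 had a mean correlation of 0.971 with the controls and 0.954 with the other cobalt tumours. Over the genes called in the comparison it reached a median of 48.1% of the change seen in the other 5, where each of the others reached 92.2 to 109% of the change in the remaining 4. Cobalt tumours 1 and 4 had low Xist and carried Y-linked RNA, as male tissue does, while the other 4 cobalt tumours and all 6 controls had high Xist, as female tissue does. Control 1 stood apart in the level of neutrophil genes, 3.64 log2 units above the control mean. Some counts are therefore also given without 1 array, or within the arrays of high Xist.

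Of 18193 genes, 6183 (34.0%) differed between cobalt tumours and control lung at an adjusted p below 0.05 by limma with Benjamini-Hochberg adjustment over all genes. Of these, 2679 genes (14.7%) were higher and 3504 (19.3%) were lower in the tumours, and the median log2 change over all genes was -0.03. At least 2-fold differences were found in 736 genes that rose (4.05%) and 1363 that fell (7.49%). Among the largest differences, of at least 16-fold, 15 genes rose and 32 fell. The 2 groups of 6 arrays did not overlap in 3432 genes (18.9%). All values are log2 expression values of the brightest probe set of a gene, with 6 arrays in each group, and each change is the mean of the cobalt tumours minus the mean of the controls.

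**Figure D1:**
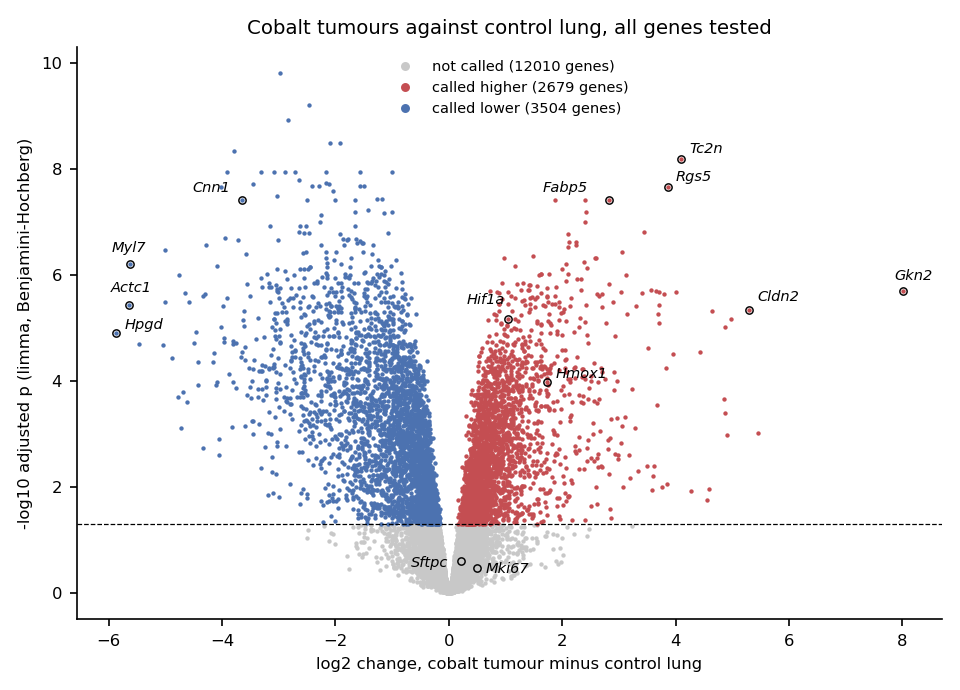
Each point is 1 of 18193 genes, with its log2 change (cobalt tumour minus control lung, 6 arrays each) on the x axis and -log10 of its adjusted p from limma on the y axis; red points were called higher, blue points lower, and the dashed line marks an adjusted p of 0.05. The falls reach further in number than the rises, while Gkn2 at 8.01 lies farthest to the right.

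The largest rise belonged to Gkn2, which encodes gastrokine 2, a secreted protein of the stomach lining. Its log2 value was 5.46 at the lowest, 6.29 at the median and 6.53 at the highest in the controls, and 13.20, 14.22 and 14.99 in the cobalt tumours. The 15 largest rises and 15 largest falls were picked only from called genes without overlap between the groups, so non-overlap was fixed by the choice. Cobalt tumour 6 was the lowest tumour for Gkn2, at 13.20. The change was 8.01 (SE 0.83; 258-fold; adjusted p = 1.97e-06).

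Other genes among the 15 largest rises encode secreted or junction proteins and growth factors. Cldn2, a claudin of leaky epithelial junctions, went from 5.06, 5.47 and 5.81 (lowest, median, highest control) to 8.83, 11.04 and 13.07 in the cobalt tumours, a rise of 5.30 (SE 0.60; adjusted p = 4.52e-06). Ereg, which encodes epiregulin, a ligand of the EGF receptor, rose by 4.85 (SE 0.83; adjusted p = 0.000213) from 4.63 to 5.00 in the controls to 7.33 to 12.55 in the tumours. In both genes cobalt tumours 3 and 6 were the lowest of the tumours. Afp, the fetal serum protein alpha-fetoprotein, rose by 4.87 from 5.24 to 6.22 to 8.59 to 11.46. Kng1, the kininogen from which bradykinin is cut, rose by 4.97, and Orm1, an acute-phase plasma protein, by 3.95. Gzme, a granzyme, rose by 5.45 with the widest spread of the 15, from 6.95 in cobalt tumour 6 to 13.23 in cobalt tumour 5. Tc2n, Rgs5 and Inava rose by 4.10, 3.86 and 3.79. Ros1, a receptor tyrosine kinase, rose by 3.84 from 5.08 to 5.48 in the controls to 7.38 to 9.75 in the tumours. S100a14, Sertad4, St8sia6 and Rian make up the 15, with rises of 4.64, 4.43, 4.01 and 4.88.

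The largest falls held genes of blood vessels, heart muscle and connective tissue. Fewer cells of a type and less RNA per cell cannot be told apart in such bulk samples. Hpgd, which encodes the enzyme that inactivates prostaglandins, fell from 12.43, 12.75 and 12.90 to 5.49, 6.33 and 10.30, a change of -5.87 (SE 0.74; 58.4-fold; adjusted p = 1.26e-05). The heart muscle genes Actc1, Myl7, Myl4 and Myh6 fell by 5.64, 5.62, 5.01 and 5.00. Tmem100, expressed by lung endothelium, fell by 5.47 from 12.04 to 12.86 to 5.26 to 9.92. Ogn, Mfap4 and Pcolce2, which encode proteins of the extracellular matrix, had changes of -4.73, -4.69 and -4.78, all of them falls. In each of these 9 genes the highest cobalt tumour was number 6, so that the fall was smallest there. Cyp4b1, a cytochrome P450 of airway epithelium, fell by 4.61, with cobalt tumour 6 at 12.83 against a lowest control of 13.25. Ppbp, a platelet chemokine, fell by 5.04, and Gpm6a, Tmcc2, Npr3 and Prickle1 fell by 4.59 to 4.88.

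**Figure D2:**
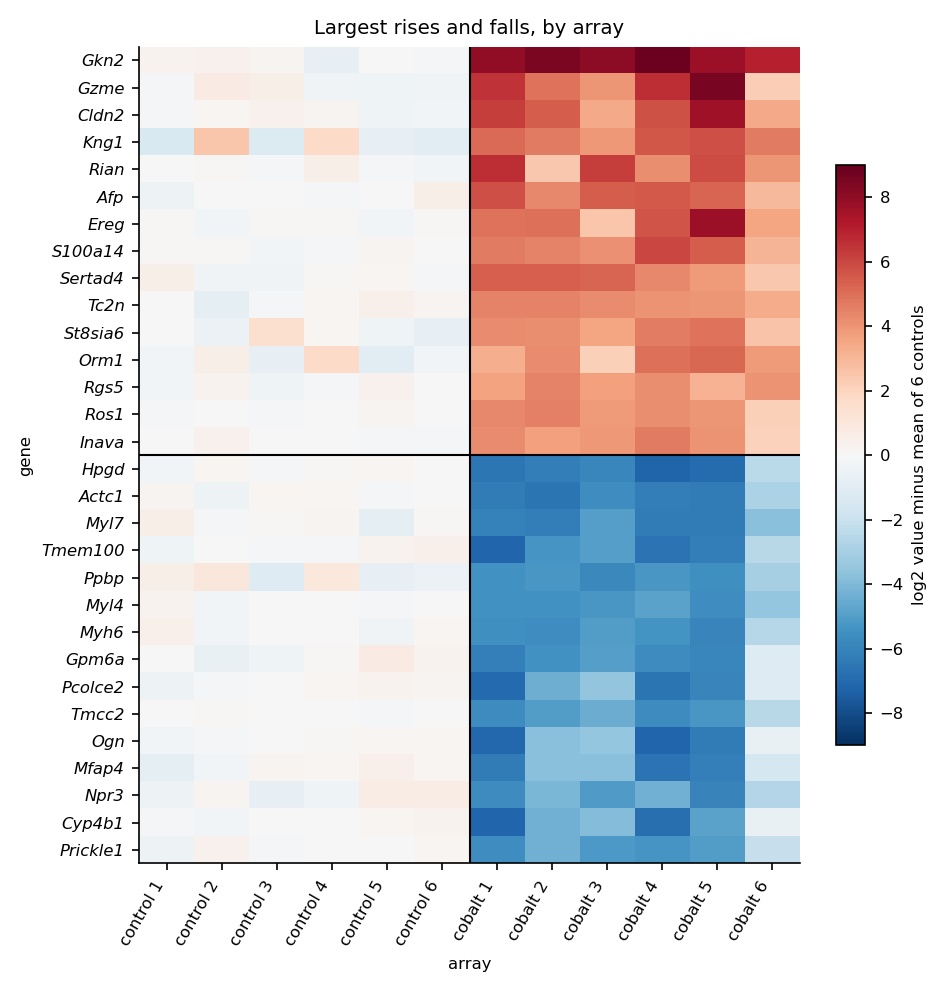
Each row is 1 of the 15 largest rises (top) or 15 largest falls (bottom) and each column 1 of the 12 arrays; the colour is the log2 value minus the mean of the 6 controls, red above and blue below. Cobalt tumour 6 is paler than cobalt tumours 1 to 5 in all 15 falls, and most of all in Ogn and Cyp4b1.

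Hypoxia genes, many of which encode enzymes of glycolysis, were mostly higher in the cobalt tumours. Of 33 measured targets of hypoxia-inducible factors, 17 rose, 2 fell and 14 were not called, against 14.7% higher and 19.3% lower over all genes, and their median change was 0.78. Their mean level per array was 0.48 to 0.91 above the control mean in the cobalt tumours and -0.14 to 0.24 in the controls. Cobalt tumour 6 was the highest of the cobalt tumours at 0.91. In the spontaneous tumours 19 of the 33 were higher than in the controls and 2 lower. Their median change there was 1.1, and the list stood at 0.58 to 1.58 per array. No member of the list differed between the tumour groups in limma at an adjusted p below 0.05, and 6 did at an unadjusted p below 0.05. Both comparisons share the control arrays.

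The promoters of 3 of these genes are shown because they carry the hypoxia element, the letters to which HIF binds, and because the genes rose together. Capitals mark ACGTG or GCGTG on either strand within 250 bases before the RefSeq start of the gene (build GRCm38.p6). Egln3 lies on the minus strand with its window at chr12:54203875-54204124, Ldha on the plus strand at chr7:46845554-46845803 and Slc2a1 on the plus strand at chr4:119108495-119108744.
Egln3: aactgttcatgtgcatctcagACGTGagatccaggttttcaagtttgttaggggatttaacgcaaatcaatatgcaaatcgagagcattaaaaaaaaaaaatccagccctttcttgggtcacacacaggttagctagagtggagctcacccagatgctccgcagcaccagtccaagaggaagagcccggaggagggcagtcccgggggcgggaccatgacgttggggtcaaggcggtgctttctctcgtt
Ldha: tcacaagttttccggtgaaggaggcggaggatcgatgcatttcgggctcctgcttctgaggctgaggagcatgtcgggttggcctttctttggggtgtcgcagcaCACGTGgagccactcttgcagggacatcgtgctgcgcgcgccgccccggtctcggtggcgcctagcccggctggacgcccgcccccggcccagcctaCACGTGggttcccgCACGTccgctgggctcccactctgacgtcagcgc
Slc2a1: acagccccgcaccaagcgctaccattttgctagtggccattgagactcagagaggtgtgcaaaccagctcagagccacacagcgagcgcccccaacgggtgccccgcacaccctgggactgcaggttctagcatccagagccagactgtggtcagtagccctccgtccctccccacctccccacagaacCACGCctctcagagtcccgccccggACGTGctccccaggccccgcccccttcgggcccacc
Egln3 holds 1 match, Slc2a1 holds 2 and Ldha holds 5, where the palindrome CACGTG counts on each strand. In windows of 250 bases before to 50 bases after the start, the element was found in 13 of the 16 hypoxia genes called higher that have a window (81.2%), in 10 of the 14 not called higher (71.4%) and in 55.6% of 14452 tested genes. It stood in 65.4% of all genes called higher and 55.4% of all called lower. A match is a run of letters and not a shown binding site.

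Egln3 encodes the prolyl hydroxylase PHD3, which tags HIF for destruction and is itself a HIF target. It went from 5.46, 5.76 and 6.74 in the controls to 8.19, 8.61 and 9.92 in the tumours, a rise of 2.92 (SE 0.48; 7.58-fold; adjusted p = 0.000147). Hk2, which encodes the first enzyme of glycolysis, went from 8.05, 8.31 and 8.70 to 9.93, 11.07 and 11.45 and rose by 2.58 (SE 0.23; adjusted p = 4.8e-07). In both genes the groups did not overlap. Aldoc, an aldolase of the same pathway, rose by 2.38, and Ankrd37, a HIF target of unsettled function, by 2.71. Slc2a1, the glucose transporter GLUT1, and Ldha, lactate dehydrogenase A, rose by 1.87 and 1.41 and were chosen after their values were seen.

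Not every target of HIF went up. Vegfa, which encodes the main growth factor of blood vessels and is also made by alveolar type 1 cells, went from 11.31, 11.46 and 12.02 to 10.14, 10.52 and 11.20. That was a fall of 1.01 (SE 0.18; adjusted p = 0.000365), with no overlap between the groups. Angptl4, a secreted inhibitor of lipoprotein lipase, fell by 1.86. Without cobalt tumour 6, 17 members rose and 5 fell.

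Of 11 genes that form or regulate HIF, 4 rose (36.4%) and 1 fell (9.09%), against 14.7% and 19.3% over all genes. Hif1a, the oxygen-sensitive subunit itself, went from 10.47, 10.69 and 10.96 to 11.42, 11.80 and 11.99, a rise of 1.05 (SE 0.12; adjusted p = 6.77e-06). Epas1, its relative HIF-2α, which is abundant in lung endothelium, went the other way, from 14.08, 14.19 and 14.24 to 11.92, 12.22 and 13.85, and fell by 1.68 (SE 0.29; adjusted p = 0.000209). Neither gene had overlapping groups, and cobalt tumour 6 was the highest tumour for Epas1. Cited2, which competes with HIF for its coactivators, rose by 1.81, and Vhl, the ligase subunit that binds hydroxylated HIF, rose by 0.48.

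NRF2 targets moved in both directions. Of 26 measured, 10 rose (38.5%), 7 fell (26.9%) and 9 were not called, against 14.7% higher and 19.3% lower over all genes. Their median change was 0.16. The mean level of the list was 0.06 to 0.38 above the control mean in the cobalt tumours against -0.09 to 0.15 in the controls, so that the ranges overlapped. Hmox1, the haem-degrading enzyme heme oxygenase 1, went from 7.73, 8.0 and 8.33 to 9.20, 9.75 and 10.27 and rose by 1.73 (SE 0.27; adjusted p = 0.000106). Gclc, the catalytic subunit of the first step of glutathione synthesis, went from 10.58, 11.07 and 11.51 to 11.76, 12.23 and 12.67, a rise of 1.21 (SE 0.20; adjusted p = 0.000136). Akr1b8, an aldose reductase family member, rose by 2.43, Me1, the cytosolic malic enzyme that supplies NADPH, by 1.59 and Abcc4, an efflux pump, by 1.44. All 5 had every tumour above every control.

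Nqo1, a quinone reductase often used as a readout of NRF2, was not among the genes that rose. It went from 5.94, 6.22 and 6.93 to 4.89, 5.43 and 6.58 and fell by 0.81 (SE 0.22; adjusted p = 0.00814), with overlapping groups; within the arrays of high Xist it was not called (adjusted p = 0.0687). The glutathione transferase Gsta2 fell by 2.24 and the epoxide hydrolase Ephx1 by 1.49, genes that airway club cells also express. Nfe2l2, which encodes NRF2 and is not in the list, rose by 0.71 (adjusted p = 0.000335) and was chosen after its value was seen. The antioxidant element TGANNNNGC stood on either strand in 5 of 7 windows of NRF2 targets called higher (71.4%), in 8 of the other 15 (53.3%) and in 42.6% of all windows.

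Antioxidant enzymes moved in both directions. Of 25, 8 rose (32%), 6 fell (24%) and 11 were not called, with a median change of 0.15 (0.11 to 0.25 with 1 array left out). The peroxiredoxins Prdx4 of the endoplasmic reticulum and Prdx3 of mitochondria, which remove peroxides, rose by 1.02 and 0.91, and the glutaredoxin Glrx, which repairs oxidised protein thiols, by 2.21. Sod3, the extracellular superoxide dismutase, went from 10.82, 11.34 and 11.51 to 6.10, 8.08 and 9.82 and fell by 3.25 (SE 0.47; adjusted p = 5.15e-05). Gpx3, the plasma glutathione peroxidase, fell by 2.02 and Pon1, a paraoxonase, by 4.49, while its relative Pon3 rose by 1.09. Of 13 oxidant-producing enzymes, 1 rose (7.69%) and 3 fell (23.1%), against 14.7% and 19.3% over all genes. Noxo1, an organiser of the NADPH oxidase of epithelium, rose by 2.36. Nox4, a catalytic subunit of another such oxidase, fell by 2.52. Within the arrays of high Xist, 1 of the oxidant enzymes fell.

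Of 22 genes of metal binding and transport, 7 rose and 7 fell (31.8% each), against 14.7% higher and 19.3% lower over all genes. Their median change was 0.19 (0.07 to 0.30 with 1 array left out). Mt1, a metallothionein that binds zinc and other metals, went from 10.23, 10.39 and 10.76 to 10.51, 11.39 and 11.87 and rose by 0.79 (SE 0.29; adjusted p = 0.041), with overlapping groups. That call was lost on leaving out control 1, 3, 5 or 6 or cobalt tumour 1, 2, 5 or 6, with adjusted p up to 0.0854. It was also lost with probe sets averaged per gene (adjusted p = 0.127) and cyclic loess normalization (adjusted p = 0.0873). The same held with Y-linked RNA as a covariate (adjusted p = 0.0665). Mt2 changed by 0.53 and was not called (adjusted p = 0.264). Hamp, the hormone hepcidin that blocks iron export, fell by 3.01 from 6.05 to 8.85 in the controls to 4.44 to 5.12 in the tumours. Slc40a1, the iron exporter ferroportin, rose by 2.02. Lcn2, the siderophore-binding protein lipocalin 2, which neutrophils also carry, was 12.56, 13.20 and 13.43 in the tumours and 8.95, 9.81 and 13.35 in the controls, a rise of 2.84 (SE 0.59; adjusted p = 0.00118). Control 1, the array with the high neutrophil genes, held the value of 13.35, and the part of neutrophils in it was not tested. The zinc exporter Slc30a1 fell by 1.12 and the zinc importer Slc39a6 by 0.90. Without control 1 or control 3, 4 of the metal genes rose, and within the arrays of high Xist 4 fell.

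Cell cycle genes were raised in a minority. Of 44, 10 rose (22.7%, against 14.7% over all genes) and 34 were not called by limma, with a median change of 0.44 (0.25 without cobalt tumour 1). At an unadjusted p below 0.05, 14 were higher and 0 lower. The mean level of the list was -0.31 to 1.16 against -0.14 to 0.08 in the controls: cobalt tumours 1, 2, 3 and 5 lay above all controls, and cobalt tumours 4 and 6 did not. Mki67, the proliferation marker Ki-67, was 6.39, 7.32 and 7.76 in the controls and 6.20, 8.10 and 8.70 in the cobalt tumours, a change of 0.50 that was not called (SE 0.38; adjusted p = 0.339). Kif23, a kinesin of cell division, rose by 1.96, Mad2l1 of the spindle checkpoint by 1.32 and Cdt1, which licenses replication origins, by 1.14. In the arrays of high Xist alone, 6 members rose. In the spontaneous tumours 38 of 44 were higher than in the same controls, and no member of the list differed between the tumour groups in limma at an adjusted p below 0.05. At an unadjusted p below 0.05, 26 did. The letters TTTGAA and CCAAT, on either strand, stood in 50.0% and 76.5% of 34 windows of cell cycle genes and in 13.3% and 38.2% of all windows. They were less frequent in the 9 windows of members called higher (33.3% and 55.6%) than in the 25 of members not called higher (56.0% and 84.0%).

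Most genes of DNA repair (18 of 23) and targets of p53 (13 of 24) were not called. Of 23 repair genes, 4 rose (17.4%) and 1 fell (4.35%), against 14.7% and 19.3% over all genes, with a median of 0.12 (0.05 to 0.22 with 1 array left out); 2 fell without control 5 or cobalt tumour 6. Among those that rose were Nudt1, which clears oxidised nucleotides, by 0.95, Apex1, the abasic-site nuclease of base excision repair, by 0.94 and Msh6 of mismatch repair by 0.98. Of 24 p53 targets, 6 rose (25%) and 5 fell (20.8%), with changes from -2.07 to 1.05 and with a median of 0.17, and 3 fell without control 3, 5 or 6 or cobalt tumour 1, 2 or 3. Ddb2, a damage sensor, rose by 0.98, and the death receptor Fas fell by 1.08.

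Genes induced by the MAPK pathway, which carries growth factor and RAS signals, rose in 14 of 21 (66.7%, against 14.7% over all genes). Their median change was 1.07. No member was called lower by limma, and 0 were lower at an unadjusted p below 0.05. Per array the list stood 0.62 to 1.76 above the control mean in the cobalt tumours, with cobalt tumour 6 the lowest, and -0.04 to 0.10 in the controls. Dusp4, a phosphatase that switches ERK off, went from 7.15, 7.46 and 7.96 to 8.91, 10.56 and 10.77 and rose by 2.83 (SE 0.28; adjusted p = 1.49e-06). Spred1, an inhibitor of RAS activation, rose by 1.98 and Dusp5, a nuclear phosphatase of ERK, by 1.74. Ereg, described above, was the largest rise of the list. Egfr, the receptor that epiregulin binds, fell by 0.49 (SE 0.17; adjusted p = 0.0295). That call was lost without control 2, 5 or 6 or cobalt tumour 2 or 5, with adjusted p up to 0.0645. It was also lost within the arrays of high Xist (adjusted p = 0.109) and with Y-linked RNA as a covariate (adjusted p = 0.08). The 7 probe sets of Egfr ran from -2.56 to 0.1, and 5 of them fell.

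Of 23 gastric and gut genes, 6 rose, Gkn2 among them (26.1%, against 14.7% over all genes), 1 fell and 16 were not called. Their median was 0.65, and 0.41 and 0.39 without cobalt tumours 4 and 5, and 11 of the 23 were among the 6064 dimmest genes. Ctse, the gastric protease cathepsin E, went from 5.73, 6.62 and 7.07 to 7.56, 10.07 and 12.18 and rose by 3.62 (SE 0.89; adjusted p = 0.00402) in its brightest probe set; its other probe set was at -0.61, so that no direction can be given for the gene. Hnf4a, a transcription factor of gut and liver epithelium, rose by 2.51 and Vil1, the microvillus protein villin, by 3.03. Sox2, a factor of airway and foregut epithelium, fell by 3.12. Without cobalt tumour 6, 9 members rose.

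Injury-associated epithelial genes, among them claudins and simple keratins, rose in 9 of 21 (42.9%) and fell in 2 (9.52%), against 14.7% and 19.3% over all genes. Their median was 1.00, and 1 member fell without control 4 or 5 or cobalt tumour 2, 3 or 4. Cldn4, a claudin of tight junctions, rose by 2.69, and Tm4sf1 fell by 2.81. Of 14 imprinted and oncofetal genes, 5 rose (35.7%) and 3 fell (21.4%). Their median was 0.13, and between 0.02 (without cobalt tumour 1) and 0.29 (without cobalt tumour 4) or, without cobalt tumour 3, -0.01. The noncoding RNAs Rian and Meg3 and the growth regulator Dlk1 come from 1 imprinted cluster. Rian went from 5.25, 5.37 and 6.02 to 7.87, 10.49 and 12.12, Meg3 from 8.0, 8.32 and 8.46 to 8.61, 13.12 and 13.58 and Dlk1 from 5.90, 6.12 and 6.54 to 6.15, 11.51 and 13.85. Cobalt tumours 2 and 4 were the lowest for Meg3 and Dlk1, and cobalt tumour 2 was within the control range of Dlk1. The rises were 4.88 (adjusted p = 0.000394), 3.59 (adjusted p = 0.0112) and 4.55 (adjusted p = 0.0174). Igf2, the imprinted fetal growth factor, and Mest fell by 0.79 and 1.16.

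Of 20 genes of the epithelial to mesenchymal transition, 12 fell and 3 rose, with a median of -0.57. Epcam, an adhesion molecule of epithelial cells, went from 9.75, 9.90 and 9.98 to 10.93, 12.40 and 12.70, a rise of 2.34 (SE 0.24; adjusted p = 1.93e-06), and Cdh1, E-cadherin, rose by 0.47. Zeb1, a repressor of epithelial genes, fell by 2.40 and Vim, the filament vimentin, by 1.41. Within the arrays of high Xist, 8 members fell. Of 22 matrix proteases and inhibitors, 4 rose (18.2%) and 5 fell (22.7%), against 14.7% and 19.3% over all genes. Mmp12, the macrophage elastase, went from 4.90, 5.18 and 6.43 to 8.24, 8.62 and 10.65 and rose by 3.70 (SE 0.45; adjusted p = 8.16e-06), and Ctsh, a cathepsin that type 2 cells use to process surfactant protein, by 2.40. Timp3 and Mmp2 fell by 2.00 and 1.89.

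Of 22 enzymes of xenobiotic metabolism, 17 fell and 1 rose, with a median of -2.01. Fmo1, a flavin monooxygenase, fell by 4.15, the sulfotransferase Sult1d1 by 4.09 and Aldh1a1, a retinal dehydrogenase, by 3.34. The exception was Cyp1b1, a P450 that activates aromatic hydrocarbons, which rose by 2.36 from 7.77, 7.87 and 8.19 to 8.61, 10.67 and 11.27 (SE 0.41; adjusted p = 0.000258). Per array the list was at -2.74 to -1.83 in cobalt tumours 1 to 5 and at -0.44 in cobalt tumour 6. Of 25 genes of lipid and sterol synthesis, 5 rose (20%, against 14.7% over all genes) and 1 fell. Their median was 0.18, and 0.04 without cobalt tumour 6, 0.07 without control 2, 0.30 without cobalt tumour 4 and 0.31 without cobalt tumour 2. Fabp5, a fatty acid carrier, went from 10.61, 10.85 and 11.37 to 13.33, 13.77 and 14.04 and rose by 2.83 (SE 0.20; adjusted p = 3.88e-08), and Acly, Srebf1 and Fasn rose by 1.05, 0.87 and 0.84. Of the lipid genes, 3 fell without cobalt tumour 6 and 2 without cobalt tumour 1 or control 6.

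Of 22 genes of prostaglandin metabolism, 3 rose (13.6%) and 5 fell (22.7%), against 14.7% and 19.3% over all genes, with a median of -0.09. Ptges, which makes prostaglandin E2, rose by 1.69 and Pla2g1b, a secreted phospholipase, by 2.65, while Hpgd, which degrades prostaglandins, fell as given above. Ptgis, the prostacyclin synthase of vessels, fell by 2.98. In the unfolded protein and integrated stress response, 5 of 27 rose and 5 fell (18.5% each), against 14.7% higher and 19.3% lower over all genes. Psat1 of serine synthesis rose by 1.90, the chaperone Pdia4 by 1.09 and Trib3 by 1.01, and the glutathione-degrading enzyme Chac1 fell by 1.06.

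Lung epithelial markers fell into an alveolar type 2 list that was mostly raised and 3 other lists that were mostly lowered. Of 22 type 2 markers, 12 rose and 3 fell, with a median of 0.80, and the list stood 0.37 to 0.87 above the control mean in the cobalt tumours. Sftpb, surfactant protein B, went from 13.59, 13.66 and 13.76 to 14.32, 14.53 and 14.74 and rose by 0.86 (SE 0.13; adjusted p = 5.13e-05). Napsa, the protease that matures it, rose by 1.30, Egfl6 by 2.29 and Chil1 by 1.89. Sftpc, surfactant protein C, was 14.83 to 14.95 in the controls and 14.99 to 15.21 in the tumours. It was not called (change 0.21, adjusted p = 0.244), lies near the top of the scale, and changed sign under another normalization. With only the 12 control and cobalt tumour arrays in the limma fit it was called (0.21, adjusted p = 0.0122). Its other probe set was at -0.05. Nkx2-1, the lung lineage factor, changed by 0.62 and was not called (adjusted p = 0.0657). Without cobalt tumour 6 it was called at 0.71 (adjusted p = 0.0399). It was also called with only those 12 arrays (adjusted p = 0.00972), array weights (adjusted p = 0.00661) or a replicate block (adjusted p = 0.0322). The 3 falls include Hc, complement component 5, by 2.51; only 1 or 2 of the 3 were called without any 1 control or without cobalt tumour 1, 2, 3 or 4. None of the 3 was called within the arrays of high Xist by limma (Hc at -1.80, adjusted p = 0.0614), and 1 member of the list was lower at an unadjusted p below 0.05.

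Of 22 type 1 markers, which belong to the thin cells of gas exchange, 16 fell, with a median of -1.54, and none was called higher by limma or at an unadjusted p below 0.05 (0 genes). Ager, the receptor RAGE and the best known of them, was 14.46, 14.53 and 14.58 in the controls and 13.45, 13.92 and 14.47 in the tumours, a change of -0.61 that was not called (SE 0.27; adjusted p = 0.0909). Without cobalt tumour 6 it was called at -0.73 (adjusted p = 0.0486). It was also called with only the 12 control and cobalt tumour arrays (-0.61, adjusted p = 0.00601). The same held with cyclic loess normalization (-0.83, adjusted p = 0.0221) and with array weights (-0.67, adjusted p = 0.00876). Hopx, a regulator in these cells, went from 13.88, 13.97 and 14.14 to 10.94, 11.60 and 13.57 and fell by 2.14 (SE 0.34; adjusted p = 0.000121), and Rtkn2 and Spock2 fell, with changes of -3.03 and -3.35. Cobalt tumour 6 stood at -0.08 for the list and cobalt tumours 1 to 5 at -2.34 to -1.32, so that this array had type 1 markers near the control level. With only the arrays of high Xist, 12 members fell.

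Of 18 club cell markers, 11 fell and 3 rose, with a median of -1.64. Scgb1a1, the main secreted protein of club cells, was 14.84, 15.02 and 15.05 in the controls and 9.97, 14.18 and 14.97 in the tumours. Cobalt tumours 1 and 4, the 2 arrays with Y-linked RNA, were at 9.97 and 10.27, and the other 4 at 14.17 to 14.97. The fall of 2.01 (SE 0.74; adjusted p = 0.0438) thus rested mainly on those arrays. Within the arrays of high Xist the change was -0.58 (adjusted p = 0.0633), and it was -1.41 (adjusted p = 0.104) without cobalt tumour 1 and -1.47 (adjusted p = 0.108) without cobalt tumour 4. The call was also lost on leaving out any 1 of the 6 controls. Scgb3a2, a related secretoglobin, fell by 3.19, and the mucin Muc5b rose by 3.05 from 6.82 to 7.91 to 8.39 to 11.70. Another secretoglobin, Scgb3a1, rose from 7.11 to 10.48 in the controls to 9.91 to 13.67 in the tumours. Bpifa1 had the largest rise of the list at 4.59, from 4.66 to 8.99 to 7.73 to 14.06. Both of these genes had overlapping groups, and 2 members of the list rose without cobalt tumour 6. Of 24 ciliated cell markers, 21 fell, with a median of -1.69. None was called higher by limma, with 1 higher at an unadjusted p below 0.05; that gene, Cfap52, was called without cobalt tumour 2 (1.14, adjusted p = 0.0049) or cobalt tumour 6 (0.94, adjusted p = 0.0468). Foxj1, the master factor of motile cilia, went from 8.49, 8.66 and 9.19 to 6.46, 6.83 and 8.48 and fell by 1.64 (SE 0.26; adjusted p = 0.000125), and the axoneme genes Tppp3, Dynlrb2 and Rsph4a fell by 3.65, 3.76 and 3.10.

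Markers of vessels, muscle and connective tissue were lower as groups, and less so in cobalt tumour 6. Of 35 endothelial markers, 32 fell, with a median of -2.55, and none was called higher by limma or at an unadjusted p below 0.05 (0 genes). Pecam1, the adhesion molecule CD31, went from 11.82, 12.03 and 12.31 to 7.88, 8.83 and 10.84 and fell by 3.00 (SE 0.38; adjusted p = 1.41e-05), and Cldn5, Ramp2 and the angiopoietin receptor Tek fell by 4.01, 3.91 and 3.81. The list stood at -3.21 to -2.15 in cobalt tumours 1 to 5 and at -1.14 in cobalt tumour 6. The same markers were lower in the spontaneous tumours in 30 of 35. None differed between the tumour groups in limma at an adjusted p below 0.05, and 2 did at an unadjusted p below 0.05.

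Heart muscle surrounds the pulmonary veins of the mouse, and 18 of its 20 markers fell, with a median of -3.04. The single rise was Myh7, the slow heavy chain of myosin, from 7.78, 8.05 and 8.18 to 9.86, 11.55 and 11.85, by 3.10 (SE 0.58; adjusted p = 0.00048). Its groups did not overlap, while the faster chain Myh6 fell. Of 20 smooth muscle and pericyte markers, 16 fell and 1 rose, with a median of -0.99. Cnn1, calponin of smooth muscle, went from 8.89, 9.42 and 9.69 to 5.34, 5.66 and 6.29 and fell by 3.64 (SE 0.26; adjusted p = 3.88e-08), and Des, desmin, by 2.01. Rgs5, a pericyte marker that dampens G-protein signals, was again the exception, with 6.42, 6.74 and 7.22 in the controls and 9.95, 10.68 and 11.24 in the tumours.

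Genes of fibroblasts and matrix numbered 31, of which 19 fell and 1 rose, with a median of -1.24. Tcf21, a factor of lung fibroblasts, went from 11.97, 12.21 and 12.37 to 5.67, 7.61 and 11.00 and fell by 4.43 (SE 0.71; adjusted p = 0.00012). Fibrillar collagens did not follow: Col1a1 and Col3a1 changed by 0.32 and 0.20 without a call (adjusted p = 0.47 and 0.611), and Col5a2 rose by 0.85. Mesothelial markers fell in 10 of 14, adipocyte markers in 5 of 10 and red cell and platelet genes in 5 of 9. Pf4, a chemokine of platelets that macrophages also make, was the exception in the last list and rose by 2.10. Within the arrays of high Xist, 7 mesothelial and 3 adipocyte markers fell, and 3 adipocyte markers fell without cobalt tumour 1, 2 or 4.

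**Figure D3:**
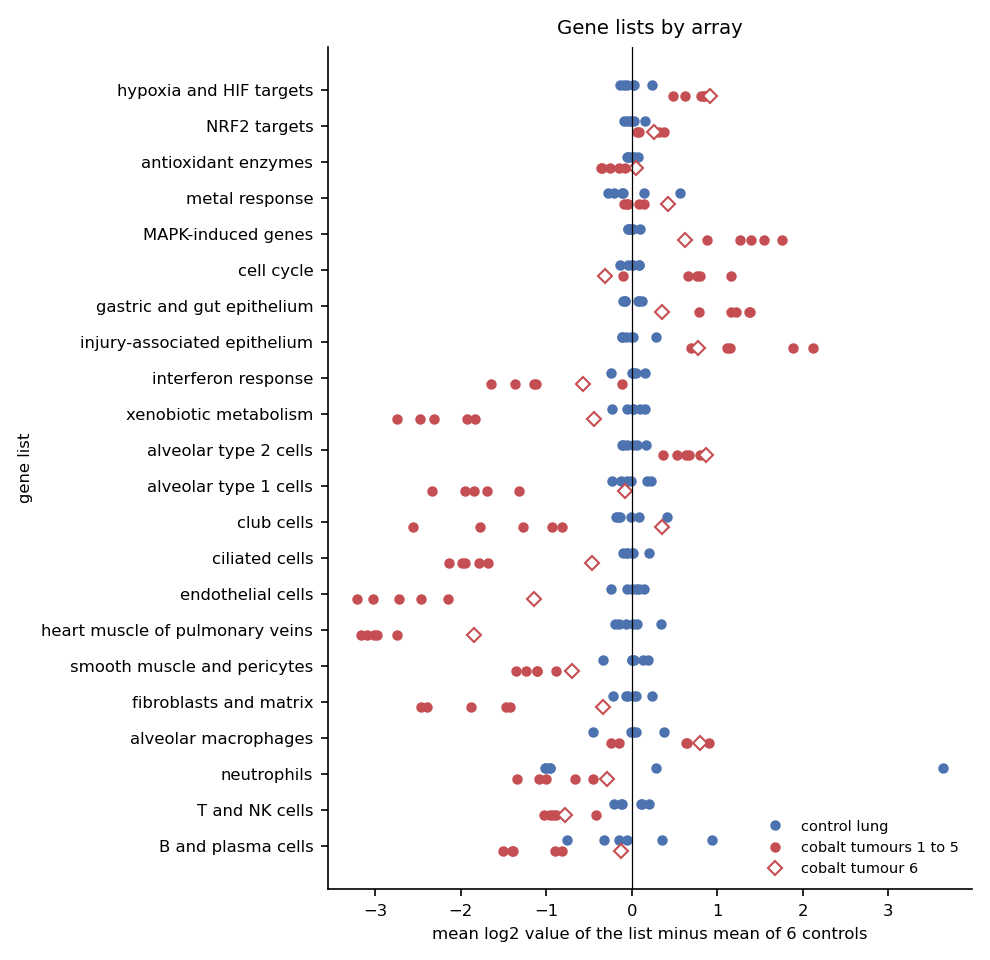
Each row is a gene list, and each point is 1 array, placed at the mean log2 value of the list minus the mean of the 6 controls; blue points are controls, red points cobalt tumours 1 to 5 and open diamonds cobalt tumour 6. Cobalt tumour 6 lies between the groups or near the controls for the endothelial, type 1, club and ciliated lists. It is the highest cobalt tumour for the hypoxia and type 2 lists.

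Macrophage genes moved in both directions, and lymphocyte genes were mostly lower. Of 21 alveolar macrophage markers, 6 rose (28.6%) and 2 fell (9.52%), against 14.7% and 19.3% over all genes. Their median was 0.55. Within the arrays of high Xist 12 rose and 1 fell. On leaving out any 1 array other than control 3, cobalt tumour 3 or cobalt tumour 6, 1 fell. Pparg, the factor that sets alveolar macrophage identity, rose by 1.41 from 7.07, 7.46 and 8.01 to 8.53, 8.98 and 9.11. Among the 23 genes that mark other macrophages and monocytes, 10 were raised (43.5%) and 5 lowered (21.7%). Their median was -0.07, but 0.10 without control 1, 0.01 without cobalt tumour 1 and 0.12 within the arrays of high Xist. Arg1, arginase 1, went from 5.34, 5.54 and 7.83 to 7.59, 9.45 and 9.75 and rose by 2.96 (SE 0.56; adjusted p = 0.000493), and Gpnmb, of lipid-laden macrophages, rose by 1.52. Lyve1, shared by lymphatic vessels and tissue macrophages, fell by 2.58, Cd163, the haemoglobin scavenger receptor, by 1.50 and Csf1r, the growth factor receptor of the lineage, by 0.82.

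Of 27 T and NK cell markers, 18 fell, with a median of -0.67, and none was called higher by limma or at an unadjusted p below 0.05 (0 genes). Cd3e of the T cell receptor complex went from 7.26, 7.42 and 7.85 to 6.56, 6.81 and 7.04 and fell by 0.67 (SE 0.14; adjusted p = 0.00115), and the granzyme Gzma of killer cells fell by 2.89. Of 17 B and plasma cell markers, 7 fell (41.2%), and 11 fell without cobalt tumour 6. Among the 7 were Ms4a1, which encodes CD20 (change -3.24), and Cd79a of the B cell receptor (change -1.51). Cd79a was not called within the arrays of high Xist by limma (adjusted p = 0.0762). The only rise of that list, Sdc1, is also a proteoglycan of epithelium and rose by 1.88. Among 18 neutrophil genes, Lcn2 was the only call by limma, and 5 were lower at an unadjusted p below 0.05. Of these genes, 3 fell and 2 rose without control 1, 2 fell without control 2, and 3 fell without cobalt tumour 6. S100a8 was 9.64, 10.39 and 14.67 in the controls and 7.56, 8.79 and 11.88 in the tumours, not called at an adjusted p of 0.075, and control 1 held the highest value; without cobalt tumour 6 it was called at -2.56 (adjusted p = 0.0194). Of 15 dendritic cell markers 2 rose (13.3%) and 5 fell (33.3%), and of 14 mast cell and basophil markers 2 fell (14.3%). Of 11 neuroendocrine markers 1 fell (9.09%), Uchl1 by 0.53. Over all genes the shares were 14.7% higher and 19.3% lower. Without cobalt tumour 2, 1 dendritic cell marker rose. Of the neuroendocrine markers, 2 rose without cobalt tumour 6 and 1 without cobalt tumour 2 or 5.

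Interferon-induced genes were lower: 14 of 22 fell and 1 rose, with a median of -0.92. Oasl2 went from 8.15, 9.01 and 10.19 to 5.81, 6.35 and 8.34 and fell by 2.35 (SE 0.46; adjusted p = 0.000735), and Usp18, Rsad2 and Ifit1 fell by 2.13, 1.94 and 1.74. Mx1, an antiviral GTPase, rose by 1.39 (adjusted p = 0.0261), a call lost without cobalt tumour 2 (adjusted p = 0.0656) or cobalt tumour 4 (adjusted p = 0.0599). The list stood at -1.64 to -0.11 in the cobalt tumours and at -0.24 to 0.15 in the controls, so that 1 tumour reached the control range. Of 17 genes of antigen presentation, 8 fell, with a median of -0.54, and none was called higher by limma or at an unadjusted p below 0.05 (0 genes). The class I genes B2m and H2-K1 fell by 1.06 and 1.00. They were not called within the arrays of high Xist (-0.58, adjusted p = 0.0569, and -0.71, adjusted p = 0.0612). Class II genes differed among themselves. H2-Ob had the largest fall of the list at -1.99, from 6.39 to 8.39 in the controls to 4.53 to 6.38 in the tumours. H2-Aa changed by 0.32 without a call (adjusted p = 0.45). Within the arrays of high Xist, 2 members fell. Of 34 cytokines and chemokines, 4 rose and 4 fell (11.8% each), against 14.7% higher and 19.3% lower over all genes. Cxcl3 was among the rises, by 2.05. The falls included Ccl5 by 2.58 and Cxcl12, a chemokine of stromal cells, by 2.12 (adjusted p = 0.0138). Cobalt tumour 6 was at 11.79 for Cxcl12, above the controls at 10.67 to 11.01, while the other 5 tumours were at 6.62 to 9.13. With the arrays of high Xist alone, 6 members of the list rose and 2 fell, and Cxcl12 was not called (-1.33, adjusted p = 0.102).

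The cobalt tumours were set directly against the spontaneous tumours in the same fit. Of 18193 genes, 15 (0.0824%) differed at an adjusted p below 0.05, 8 of them higher (0.0440%) and 7 lower (0.0385%) in the cobalt tumours; 2105 did at an unadjusted p below 0.05. Y-linked RNA was present in 4 of the 6 spontaneous tumours (1, 2, 3 and 5) and in 2 of the 6 cobalt tumours. No gene was called within the arrays of high Xist by limma (409 higher and 817 lower at an unadjusted p below 0.05), and 1 was called with only the 12 arrays of these groups or with a replicate block. Gkn2 had the largest of these differences. Its spontaneous tumours ranged from 5.82 to 13.31, with only their highest, number 4, inside the cobalt range of 13.20 to 14.99, and the difference was 4.64 (adjusted p = 0.038). Liph, a lipase that makes lysophosphatidic acid, had the smallest p: it was 9.10 to 9.70 in the spontaneous tumours, 9.26 to 9.58 in the controls and 10.21 to 10.82 in the cobalt tumours, a difference of 1.07 from the spontaneous tumours (adjusted p = 0.000836). Cfap52, a protein of motile cilia, was 6.56 to 7.98 in the spontaneous tumours and 8.15 to 10.77 in the cobalt tumours, higher by 2.30 (adjusted p = 0.0138). It was the only one of the 24 ciliated cell markers that differed between the tumour groups, and against the controls it was not called (change 0.85, adjusted p = 0.0588).

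Slc1a4, a transporter of neutral amino acids, was higher than in the spontaneous tumours by 1.57 (adjusted p = 0.0179) and higher than in the controls by 2.06 in its brightest probe set. Its other 2 probe sets were lower in the cobalt tumours than in the controls, by 1.22 and 1.47, so that no direction can be given for the gene. Rasgef1b and Tmem176b were higher than in the spontaneous tumours by 1.03 and 0.49. The cilia-linked gene Ppp1r32 and Lrrc10b were higher by 0.67 and 0.80, while against the controls Ppp1r32 fell by 0.42 and Lrrc10b changed by -0.19 without a call.

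Of the 7 genes lower than in the spontaneous tumours, Col6a3, a chain of collagen VI, was 9.49 to 10.32 there and 8.72 to 9.42 in the cobalt tumours, lower by 0.80 (adjusted p = 0.0288). Tinag, Phlda3, a p53 target, and Hsd3b7 of bile acid synthesis differed by -1.92, -0.76 and -0.57. Dctn5 of the dynactin complex, Rexo2, an RNA nuclease, and Vps35l differed by -0.48, -0.50 and -0.39. Against the controls Col6a3 had the largest change of the 7 at -1.62, with controls at 10.56 to 10.97, followed by Tinag at -1.50. Phlda3, Dctn5 and Rexo2 also fell against the controls, by 0.79, 0.44 and 0.73. The metallothionein Mt2 and Mki67 were lower in the cobalt than in the spontaneous tumours by 1.58 and 1.29 without passing the test (adjusted p = 0.0908 and 0.193). Without cobalt tumour 6, 36 genes were higher and 46 lower than in the spontaneous tumours, and without cobalt tumour 1, 1 was higher and 0 lower by limma, with 655 and 1181 at an unadjusted p below 0.05.

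**Figure D4:**
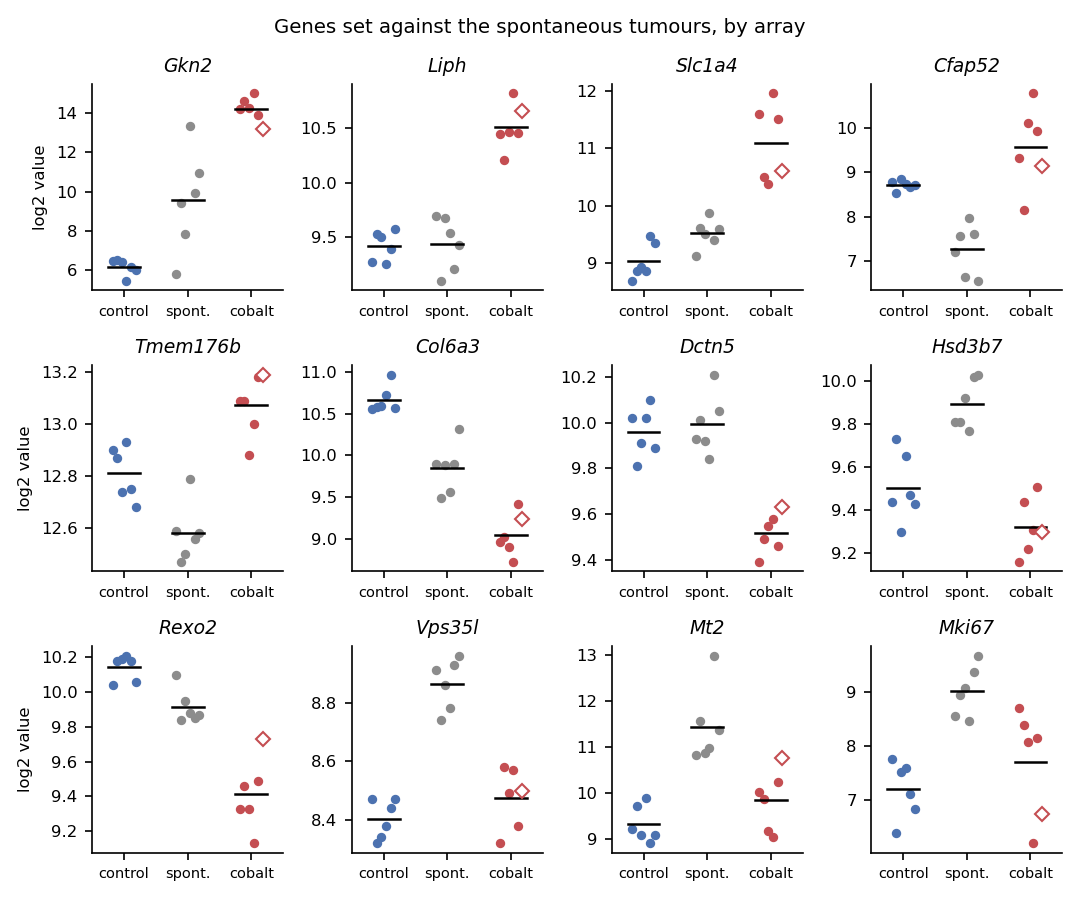
Log2 values of 12 genes in the 18 arrays, 6 in each of control lung (blue), spontaneous tumours (grey) and cobalt tumours (red, with cobalt tumour 6 as an open diamond); bars are group means and each panel has its own y axis. Liph, Dctn5 and Hsd3b7 show cobalt tumours apart from spontaneous tumours, and Mki67 shows the overlap behind a difference that did not pass the test.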

How the data were processed

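RNA from 6 control lungs, 6 spontaneous tumours and 6 tumours of cobalt-exposed mice was measured on Affymetrix arrays. The deposited values are log2 intensities, 1 column per array, made by the authors with RMA per the submitters' processing notes, which name no version or settings. Deposited values ran from 3.34 to 15.26, and array medians from 6.32 to 6.45. The number of arrays limits the precision.

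Of 45101 probe sets, 64 were controls, 34945 had 1 gene symbol, 932 had several and 9160 had none listed in the platform annotation; 34741 of the single-symbol probe sets matched a RefSeq gene. Each of 18193 genes was represented by the brightest of its probe sets, by the average of all 18 arrays; 9010 genes had several. RMA shrinks low signals toward a floor, so differences of dim genes are understated, and levels of different genes are not compared.

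The program named in the series' design text was not used here. Instead limma 3.58.1 in R 4.3.3 was fitted to all 18 arrays with group as the only term, two-sided, with Benjamini-Hochberg adjustment over 18193 genes and a threshold of 0.05. In simulated data of the cobalt against control comparison over 18193 genes, 84% of 100 genes changed by 1 log2 unit and 93% of 100 changed by 2 were recovered, with 13 false calls. The members and the 41 gene lists (963 entries, of which 81 found no measured gene) were chosen with earlier results of these data known, and no list was tested as a set. Named genes are the 15 largest changes in each direction among called, non-overlapping genes outside the 6064 dimmest, up to 4 members of each list in each direction, a short set of marker genes, and, against the spontaneous tumours, the 5 smallest p-values in each direction. The other 5 genes called against the spontaneous tumours are given as well. The rule leaves out clone names, and Xist and genes of the Y chromosome.

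Same-numbered arrays were checked for pairing: their deviations from the group means correlated between -0.11 and 0.10 for controls and cobalt tumours, and between -0.34 and 0.19 for spontaneous and cobalt tumours, so the numbers were not used as pairs. Promoter windows come from RefSeq (GRCm38.p6), and 1 window was read per gene. Alternatives were cyclic loess, the 6064 dimmest genes left out, probe sets averaged per gene, a trended robust fit, array weights, only the 12 arrays compared, a replicate block, Y-linked RNA of 3 genes as a covariate, only the 12 arrays with Xist above 10, and each array left out. Tables and plots were made with Python 3.11.15, pandas 2.3.3 and matplotlib 3.10.9.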

Additional observations from a re-analysis of the deposited data

Results flagged for a closer look

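In groups of 6 arrays, a value was singled out where its gap to the nearest other array, as a share of the whole range, passed Dixon's 95% critical value. Of 444 groups checked, 43 had such an array, where chance gives about 1 in 20 (22.2). Cobalt tumour 6 accounted for 26 of the 43 and control 1 for 9.

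Among genes that fell in the cobalt tumours, cobalt tumour 6 stood above the other tumours for Hpgd (10.30), Ptgis (10.90), Timp3 (12.33), Gpm6a (8.84) and Zeb1 (9.83). It did so for the heart muscle genes Actc1 (9.02), Myh6 (8.07) and Myl4 (7.54), and for the platelet gene Ppbp (7.23). The epithelial genes Hopx (13.57), Foxj1 (8.48), Rsph4a (7.64), Sox2 (9.34), Sult1d1 (8.83) and Nqo1 (6.58) had the same pattern. So had Cd163 (6.70), Ms4a1 (7.07), Hamp (5.12) and Prickle1 (8.66). Among genes that rose, it stood below the other tumours for Epcam (10.93), Dusp4 (8.91), Ros1 (7.38) and Pdia4 (8.96). Its list levels stood apart for ciliated cells (-0.47), heart muscle (-1.85) and adipocytes (-0.28).

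Control 1 stood apart for Lcn2 (13.35), Slc40a1 (10.44), Glrx (10.30), Sod3 (10.82) and Phlda3 (9.21). Its list levels stood apart for neutrophils (3.64), oxidant-producing enzymes (0.59), injury-associated epithelium (0.28) and smooth muscle (-0.34). Control 3 was the highest control for Cd79a (10.96), Ms4a1 (11.39) and Foxj1 (9.19), control 4 was apart for Gpnmb (9.48), and control 2 for the adipocyte list (0.70). Cobalt tumour 2 was apart for Ppp1r32 (6.68), cobalt tumour 4 for Scgb3a2 (6.44) and cobalt tumour 5 for the stress response list (0.43).

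The 15 genes called between the tumour groups differ in their change from the same controls. Higher in the cobalt tumours were Gkn2 (4.64), Cfap52 (2.30), Slc1a4 (1.57), Liph (1.07), Rasgef1b (1.03), Lrrc10b (0.80), Ppp1r32 (0.67) and Tmem176b (0.49). Lower were Tinag (-1.92), Col6a3 (-0.80), Phlda3 (-0.76), Hsd3b7 (-0.57), Rexo2 (-0.50), Dctn5 (-0.48) and Vps35l (-0.39), all as log2 differences in the limma fit.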

How the results depend on the processing

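Over the alternatives run, the counts against control lung ranged from 2215 to 3512 genes higher and from 2835 to 4155 lower, all within 1.5 times the reported counts. Of the 181 named genes, 163 kept their direction and their side of the threshold in all alternatives in which they were tested. Sftpc turned to -0.04 with cyclic loess and Slc1a4 to -0.21 with probe sets averaged per gene, neither of them called. Other probe sets did not follow the named one for Inava (-0.01), Myl4 (0.05), Ctse (-0.61), Sftpc (-0.05) and Egfr (up to 0.1). The same held for 1 probe set each of Acly, Cdt1 and Cyp1b1, at -0.04, and of Dctn5, at 0.0. With the replicate number as a block, 2476 genes were higher and 3308 lower than in control lung; 2409 of the 2679 and 3247 of the 3504 calls were kept, and the numbers do not pair the samples.

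The counts against the spontaneous tumours (8 higher, 7 lower) depended on the setting. With only the 12 arrays they were 1 and 0 by limma (600 and 1029 at an unadjusted p below 0.05), with the replicate block 1 and 0 (726 and 1199), and within the arrays of high Xist 0 and 0 (409 and 817), where fewer samples were tested. The lower genes numbered 14 without the 6064 dimmest genes, 12 with averaged probe sets, 12 with array weights and 18 with Y-linked RNA as a covariate. With 1 array left out, 1 to 36 genes were higher and 0 to 46 lower. The higher count was 18 without spontaneous tumour 4, 4 without spontaneous tumour 5, 1 without cobalt tumour 1 and 36 without cobalt tumour 6. The lower count was 16, 17 and 2 without spontaneous tumours 1, 4 and 5, and 0, 4, 3, 19 and 46 without cobalt tumours 1, 3, 4, 5 and 6. The cause of these differences between settings was not tested. The 18 arrays, and the unknown sex and concentration behind each, limit what can be told apart.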
